A study of Homo sapiens with 8 samples.

Results

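The baseline transcriptomes of a neuroendocrine and an adenocarcinoma prostate cancer cell line were compared from 4 of the 8 RNA-seq libraries of the study, the 2 control libraries of NCI-H660 and the 2 control libraries of C4-2B. They were chosen by their labels alone, and no library from cells with altered MYCL was used. NCI-H660 is an established line of neuroendocrine prostate cancer, and C4-2B is a castration-resistant adenocarcinoma line. The NCI-H660 controls carried a non-targeting shRNA construct (shCtrl), and the C4-2B controls carried an empty lentiviral vector. The shRNA vector is named as adenoviral in the series description, while the labels speak of stable knockdown, so its type is uncertain. C4-2B was grown in RPMI-1640 with 10% fetal bovine serum, and NCI-H660 in the same base with additional growth supplements. Each lineage was thus represented by a single line, and line, vector and medium cannot be told apart in any difference given here. The labels call the C4-2B libraries biological replicates and number the NCI-H660 ones, without naming separate cultures, so p-values measure only the spread between these libraries.

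Luminal prostate cells depend on androgen signaling, which with the factors FOXA1 and HOXB13 drives secretory genes such as KLK3, the gene of prostate-specific antigen. Neuroendocrine prostate cancer can arise after therapy that blocks androgen signaling, when neuroendocrine factors such as INSM1 turn on genes of dense-core granules and neurons. The MYC family (MYC, MYCL and MYCN) encodes related transcription factors that pair with MAX and bind E-boxes.

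Libraries held 16998880 and 18362950 counts in NCI-H660 and 32344170 and 23489171 in C4-2B. Mitochondrial genes took 3.50% to 3.52% of counts in NCI-H660 and 9.63% to 9.67% in C4-2B, and the 10 most abundant genes took 4.32% to 4.78% and 9.75% to 9.76%. Levels are given as CPM, counts scaled to library size with TMM factors, in the order of replicates 1 and 2. A gene was called at an adjusted p under 0.05 by edgeR's quasi-likelihood test and a log2 fold change (NCI-H660 over C4-2B) of at least 1 in size. Of 18748 genes tested, 5581 were higher in NCI-H660 (29.8%) and 4861 were lower (25.9%), so 55.7% were called in either direction, and the median log2 fold change was 0.04. Past a log2 fold change of 2 stood 3843 higher and 2501 lower genes. The split of the calls depended on the scale, since 53.4% of calls were on the higher side on TMM-normalized counts, 74.5% on log2(TPM + 1), a scale that put the median over genes at 0.57, and 43.5% after centring those values. A difference smaller than this shift had no fixed direction. A single gene taken alone could reach a two-sided p of 0.33 at best in an exact permutation test of 2 libraries against 2. A gene that passed the filter on low counts through 1 line alone had to differ, so the counts of list members below describe the genes tested and not every listed gene.

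The marker genes matched the labelled lineages. Summed over 6 neuroendocrine markers, the level was 1288 and 1191 TPM in the NCI-H660 libraries and 8.87 and 9.18 TPM in C4-2B. Summed over 6 luminal markers, it was 145 and 121 TPM in NCI-H660, of which FOXA1 gave 144 and 121 TPM, and 1860 TPM in both C4-2B libraries. In bulk RNA, fewer cells of a kind and less RNA per cell cannot be told apart. The basal keratins KRT5 and KRT14 summed to 0 TPM in NCI-H660 and to 0.212 and 0.549 TPM in C4-2B. The 20 markers of blood, endothelial and stromal cells summed to 11 to 13.2 TPM in NCI-H660 and 10.4 to 13.0 TPM in C4-2B, ranges that overlap. Of the 9 tested, 5 were higher in NCI-H660 (LUM, HBA1, KDR, CD14 and CDH5) and 4 were lower (VWF, LYZ, CD68 and PDGFRB), while PTPRC, CD3E, HBB and DCN had no count in any library. Without NCI-H660 replicate 1, 3 of these markers were higher, and the LYZ call was lost without NCI-H660 replicate 2 and with DESeq2.

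Most neuroendocrine transcription factors tested were higher in NCI-H660. Of 49 listed, 30 passed the filter on low counts, and 25 of those were higher in NCI-H660, 2 were lower and 3 were not called. The median log2 fold change was 8.16, or 6.16 with each gene at 0 in a line set to its bound, beside 0.04 over all genes. It depended on the filter and the scale. Without a filter on low counts 27 of 44 listed genes were higher and the median was 4.83, and on log2(TPM + 1) it was 3.17, or 1.48 without a filter.

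INSM1, a zinc finger factor of endocrine differentiation, stood at 54.9 and 55.5 CPM in NCI-H660 and had no count in either C4-2B library, so it was at least 971-fold higher against a floor of 3 counts over the 2 libraries. NKX2-1, a lung and thyroid homeobox factor also seen in small cell carcinomas, stood at 254 and 250.02 CPM against 0 and 2 counts, a ratio of 6648 with a 95% interval of 1839.9 to 54906. Intervals of such ratios cover counting error only. SOX2, a pluripotency and neural factor, stood at 103 and 99.1 CPM against 1 and 0 counts. The B-lineage factor PAX5 stood at 81.4 and 83.9 CPM and had no count in C4-2B (at least 1455-fold higher). In all 4 genes the groups were separated by a near absence in C4-2B, not by a graded difference.

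Among the other factors, the neural POU factor POU3F2 (BRN2) stood at 45.3 and 43.8 CPM against 0.164 and 0 CPM, a log2 fold change of 8.80 ± 0.31. PROX1 stood at 59 and 47.4 against 0.0328 and 0.134 CPM (9.35 ± 0.30), and NEUROG3, an endocrine progenitor factor, at 6.79 and 4.06 CPM against 0 and 1 counts. SOX11, a neural progenitor factor, was expressed in both lines and was higher in NCI-H660 by 5.30 ± 0.16 on the log2 scale. FOXA2, a pioneer factor of endodermal and neuroendocrine cells, was at 3.59 and 6.16 CPM and without a count in C4-2B. Not every proneural gene took part. NEUROD1 had 6 and 3 counts in NCI-H660 and was not tested, HES6 was not called at 0.89 ± 0.11, and NKX2-2 went the other way, with no count in NCI-H660 and 22 and 35 in C4-2B. ONECUT2, a factor linked to loss of the luminal program, was expressed in both lines, at 89.8 and 69.5 CPM in NCI-H660 and 40.2 and 39 CPM in C4-2B (1.01 ± 0.12), at the edge of the call. The ONECUT2 call was lost with the replicate block (0.999), without NCI-H660 replicate 1 (0.836) or C4-2B replicate 2 (0.974) and with the length and GC trend removed (0.625).

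**Figure D1:**
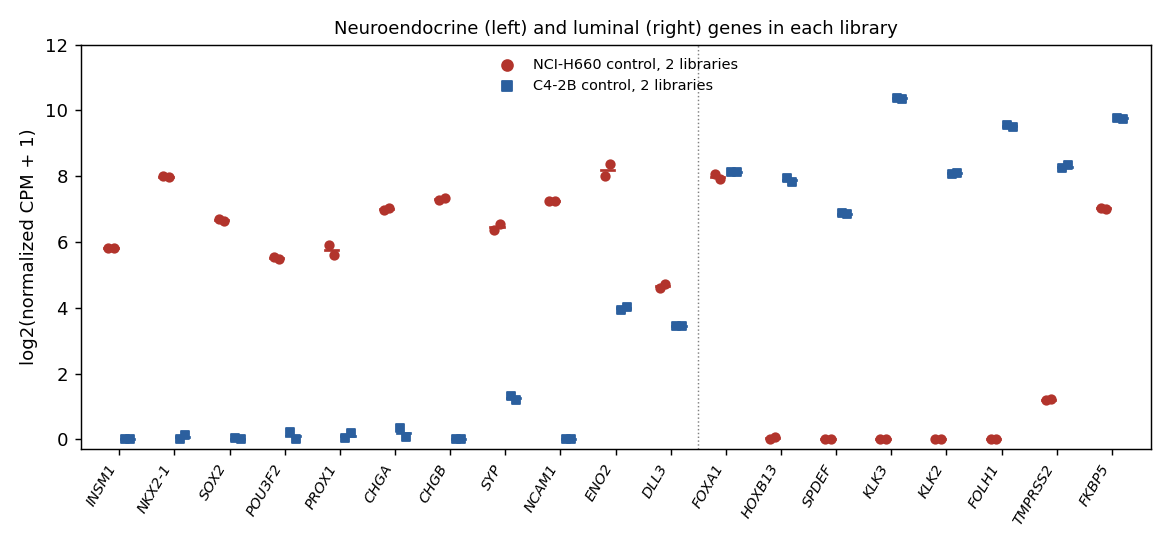
Level of 11 neuroendocrine and 8 luminal genes in each of the 4 libraries, as log2 of TMM-normalized CPM plus 1. Points are libraries and bars are means of 2; the INSM1 to NCAM1 points of C4-2B lie near 0 except those of SYP, and FOXA1 is the luminal gene in which the lines lie together.

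Genes of secretory granules and synaptic vesicles showed no exception in direction among calls, with 34 of 41 tested higher in NCI-H660 and none lower (median 6.51, or 5.38 at the bounds). The median was 3.23 on log2(TPM + 1) and 2.58 there without a filter. CHGA, the granule protein chromogranin A, stood at 124 and 129.9 CPM against 0.263 and 0.0448 CPM, a log2 fold change of 9.50 ± 0.22. CHGB, its relative, stood at 155 and 162 CPM with no count in C4-2B (at least 2789.8-fold higher). SYP, the vesicle protein synaptophysin, stood at 81 and 93.1 against 1.51 and 1.3 CPM (5.93 ± 0.16), so C4-2B had a low but measurable level of it.

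The machinery of regulated release also differed. SNAP25, a membrane fusion protein, stood at 44.9 and 40.6 CPM in NCI-H660 and had no count in C4-2B. The prohormone convertase PCSK1 stood at 50.5 and 47.4 CPM and its relative PCSK2 at 55.9 and 48.5 CPM, also without a count in C4-2B. RIMS2, an active zone scaffold, stood at 152 and 128 CPM against no count (at least 2455-fold higher), and SYT1, the calcium sensor of vesicle fusion, at 76.5 and 64.1 CPM against 3 and 0 counts. RAB3B, a vesicle GTPase, overlapped between the lines, at 277 and 235 CPM in NCI-H660 and 227 and 259 CPM in C4-2B.

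Of 37 neuroendocrine enzymes, peptides and surface markers tested, 34 were higher in NCI-H660 and none was lower (median 6.81, or 6.25 at the bounds, and 4.19 on log2(TPM + 1) without a filter). NCAM1, the adhesion molecule CD56, stood at 149.7 and 151 CPM with no count in C4-2B (at least 2648-fold higher). UCHL1, a neuronal ubiquitin hydrolase, stood at 358 and 396 against 0.427 and 0.314 CPM (9.94 ± 0.17), and ENO2, neuron-specific enolase, at 255 and 332 against 14.4 and 15.4 CPM (4.31 ± 0.14). DLL3, an inhibitory Notch ligand and therapeutic target, was less one-sided. It stood at 23.1 and 25.5 CPM in NCI-H660 and 9.81 and 9.99 CPM in C4-2B, a log2 fold change of 1.30 ± 0.14. The tyrosine kinase receptor RET was higher by 6.92 ± 0.14 and the neural adhesion molecule L1CAM by 5.84 ± 0.15. Peptide genes were expressed in NCI-H660 and nearly silent in C4-2B, with NTS (neurotensin) at 25.4 and 26.2 CPM, CALCA (calcitonin) at 23.1 and 28.8 CPM and NPY (neuropeptide Y) at 6.46 and 6.78 CPM against at most 1 count in any C4-2B library. DDC, the decarboxylase of amine synthesis, was not called (0.71 ± 0.12) and stood at 33.2 and 38 CPM in C4-2B.

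Transcription factors of luminal cells were more often lower than higher in NCI-H660. Of 27 tested, 15 were lower and 8 higher (median -1.36). The lower share was 55.6%, beside 25.9% of all genes tested, and the higher share, 29.6%, was near the 29.8% of all genes. HOXB13, a prostate homeobox factor, had 0 and 1 counts in NCI-H660 and stood at 245 and 228 CPM in C4-2B, a ratio of 8865 with a 95% interval of 1591 to 350180.0. SPDEF, an ETS factor of luminal secretory cells, had no count in NCI-H660 and stood at 118 and 114 CPM in C4-2B (at least 1442-fold lower). FOXA1, a pioneer factor that opens luminal enhancers, stood apart from these. Its levels were 269 and 239 CPM in NCI-H660 and 277 and 277 CPM in C4-2B, a log2 fold change of -0.13 ± 0.09 (edgeR's quasi-likelihood test, adjusted p = 0.197) that turned to 0.48 on log2(TPM + 1), below the shift of all genes on that scale.

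The glucocorticoid receptor gene NR3C1, a steroid receptor, stood at 82.2 and 78.7 CPM against 3 and 0 counts in C4-2B for a ratio of 1413 with a 95% interval of 483 to 6856. The ETS gene ERG, often fused to TMPRSS2 in prostate cancer, stood at 9.15 and 10.3 CPM with no count in C4-2B (at least 172-fold higher), and ETV1, another ETS gene, was higher by 6.35 ± 0.32. Epithelial factors split, since ELF3 (3.20 ± 0.12), KLF5 (2.58 ± 0.11) and TFAP2A (4.47 ± 0.14) were higher in NCI-H660 and EHF (-2.24 ± 0.09), GRHL2 (-1.36 ± 0.09) and TBX3 (-1.73 ± 0.10) were lower. GATA2, a zinc finger factor of luminal cells, was lower by a small step (-1.21 ± 0.11), with 39.1 and 48.1 CPM left in NCI-H660. The calls of GATA2 and GRHL2 were lost on both TPM scales. NR2F2 (COUP-TFII), a nuclear receptor, was lower by 5.34 ± 0.17 on the log2 scale and its paralog NR2F1 by 3.11 ± 0.22.

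Androgen-regulated genes were more often lower than higher in NCI-H660, with 42 of 80 tested lower and 10 higher (median -1.16, or -0.50 on log2(TPM + 1)), and 28 were not called. KLK3, the most used readout of androgen signaling, had no count in NCI-H660 and stood at 1318 and 1315 CPM in C4-2B (at least 16364-fold lower). KLK2, a related protease, also had no count in NCI-H660 and stood at 269 and 275 CPM in C4-2B, and so did KLK4, at 53.2 and 57.5 CPM. KLK2 and KLK3 are close paralogs whose reads can be shared, which leaves their split in C4-2B uncertain. TMPRSS2, a membrane protease, stood at 1.29 and 1.33 against 302 and 324 CPM (-7.89 ± 0.14), and the prostein gene SLC45A3 at 4.21 and 3.9 against 568 and 528 CPM (-7.08 ± 0.12).

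Other listed androgen-regulated genes were expressed in NCI-H660. FKBP5, a co-chaperone of steroid receptors, stood at 129 and 129 CPM in NCI-H660 and 871 and 857 CPM in C4-2B (-2.75 ± 0.08). NDRG1, a stress and differentiation gene, was higher in NCI-H660, at 3611 and 4854 against 825 and 727 CPM (2.45 ± 0.13). SGK1, a kinase that also responds to glucocorticoids, was higher by 3.67 ± 0.11, and B2M by 2.30 ± 0.09. MAF (0.04 ± 0.09) and TRPM8 (0.31 ± 0.16) were not called.

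The KLK3 and KLK2 promoters are shown since both genes had no count in NCI-H660 and high levels in C4-2B. The 250 bases before the RefSeq start (GRCh38.p14) were read for each, KLK3 from chr19:50854665-50854914, plus strand, and KLK2 from chr19:50873189-50873438, plus strand. Capitals mark AGAACA or its reverse complement TGTTCT, the core letters of an androgen response element arm.
KLK3: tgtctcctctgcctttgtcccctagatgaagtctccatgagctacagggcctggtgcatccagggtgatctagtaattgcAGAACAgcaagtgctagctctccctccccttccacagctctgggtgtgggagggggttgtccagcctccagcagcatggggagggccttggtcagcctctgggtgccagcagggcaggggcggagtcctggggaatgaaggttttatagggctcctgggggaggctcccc
KLK2: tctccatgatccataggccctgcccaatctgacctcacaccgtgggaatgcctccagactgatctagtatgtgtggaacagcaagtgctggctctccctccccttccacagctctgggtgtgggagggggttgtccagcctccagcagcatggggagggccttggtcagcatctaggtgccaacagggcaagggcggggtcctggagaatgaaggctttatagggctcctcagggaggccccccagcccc
The KLK3 window held the letters once, at position -170 from the start, and the KLK2 window held no exact match. Promoter windows of 300 bases in the RefSeq table were counted with chromosomes 8 and Y left out. Of these 34961 windows, 14.8% hold these letters on either strand. Neither a match nor its absence shows whether the androgen receptor binds there, and binding was not tested. Both 300-base windows were poor in CpG, with 0.072 (KLK3) and 0.109 (KLK2) of the CpG number that their C and G content gives, beside a median of 0.58 over all promoters.

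Prostate secretory and differentiation genes gave 18 lower and 3 higher of 26 tested (median -7.19, or -6.16 at the bounds). The median was -3.82 on log2(TPM + 1) and -1.68 there without a filter. FOLH1, which encodes prostate-specific membrane antigen, had no count in NCI-H660 and stood at 747 and 726 CPM (at least 9178-fold lower), and AZGP1, a secreted zinc-binding glycoprotein, had none against 244 and 243 CPM. The metal reductase genes STEAP1 and STEAP2 were lower by 7.86 ± 0.19 and 8.69 ± 0.14. AMACR, a peroxisomal racemase used to diagnose prostate cancer, was not called and stood at 68.4 and 62.1 CPM in NCI-H660 and 43.6 and 44.3 CPM in C4-2B. MUC1, a mucin, was higher in NCI-H660 by 5.73 ± 0.24. The other higher genes of the list were NPY, given above, and NEFH, a neurofilament gene, at 28.1 and 27.1 CPM in NCI-H660 and 0.295 and 0.717 CPM in C4-2B.

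Androgen-metabolizing enzymes gave 13 lower and 4 higher of 18 tested (median -2.20, or -1.43 on log2(TPM + 1) and -0.69 there without a filter). Lower were 72.2% and higher 22.2%, beside 25.9% and 29.8% over all genes tested. UGT2B11 and UGT2B28, which glucuronidate androgens, had no count in NCI-H660. In C4-2B UGT2B11 stood at 331 and 311 CPM and UGT2B28 at 102 and 95.5 CPM, though members of this family share sequence and their reads cannot be split with certainty. The 5-alpha-reductase genes SRD5A1 and SRD5A3 were lower by 2.28 ± 0.15 and 3.31 ± 0.16. AKR1C3, which makes testosterone from androstenedione and also has near copies, went the other way, with 62 and 69 counts in NCI-H660 and 1 and 0 in C4-2B.

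The MYC family differed gene by gene. MYC stood at 13.1 and 17.5 CPM in NCI-H660 and 155 and 150.1 CPM in C4-2B, a log2 fold change of -3.31 ± 0.13 (edgeR's quasi-likelihood test, adjusted p = 4.33e-10). MYCL stood at 105 and 82.2 against 12.2 and 14.3 CPM, higher by 2.82 ± 0.14 (edgeR's quasi-likelihood test, adjusted p = 3.84e-09). MYCN had 24 and 53 counts in NCI-H660 and none in C4-2B (at least 36.3-fold higher). For none of the 3 genes did the groups overlap. Per transcript length, MYCL was the leading family member in NCI-H660, at 64.3 and 48.2 TPM beside 11.3 and 14.1 TPM of MYC and 1.26 and 2.55 TPM of MYCN, and MYC the leading one in C4-2B, at 88.2 and 91.5 TPM beside 5.47 and 6.39 TPM of MYCL.

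**Figure D2:**
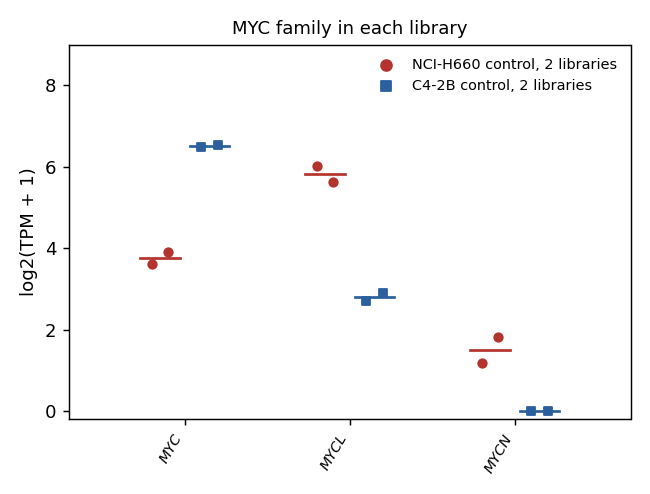
Level of the 3 MYC family genes in each library, as log2 of TPM plus 1, a scale per transcript length. Points are libraries and bars are means of 2; MYC and MYCL exchange places between the lines, and MYCN is at 0 in C4-2B.

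Of the 20 genes of the MYC, MAX and MXD network, all tested, 6 were higher and 2 lower (median 0.53). Over all genes tested, 29.8% were higher and 25.9% lower. The network's higher share was near the first of these, and its lower share was below the second. MAX, the shared dimer partner, was not called (-0.45 ± 0.09), and MXI1 (0.20 ± 0.09) and MXD4 (-0.08 ± 0.10), antagonists at the same sites, were not called either. TXNIP, a glucose-responsive target of the MondoA and MLX arm, was higher by 4.0 ± 0.11, at 897 and 934 against 52 and 62.7 CPM, whereas MLX itself was lower (-1.70 ± 0.10). CIP2A, which stabilizes MYC protein, was higher by 1.40 ± 0.11, FBXW7, a ubiquitin ligase for MYC, by 1.01 ± 0.13, and ARRDC4, another MondoA target, by 1.02 ± 0.13. FBXW7 and ARRDC4 stood at the edge of the call. Without C4-2B replicate 1 both calls were lost, at 0.868 for FBXW7 and 0.942 for ARRDC4, and the network count of higher genes was 4. It was 5 under upper quartile normalization, without NCI-H660 replicate 1 (FBXW7 0.959) and with the length and GC trend removed (FBXW7 0.876). The MLX call was lost on both TPM scales.

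MYCL and CHGA promoters are shown as examples of genes with higher levels in NCI-H660. The 250 bases before the RefSeq start (GRCh38.p14) lie at chr1:39901918-39902167, minus strand for MYCL and at chr14:92922900-92923149, plus strand for CHGA, and capitals mark each CG.
MYCL: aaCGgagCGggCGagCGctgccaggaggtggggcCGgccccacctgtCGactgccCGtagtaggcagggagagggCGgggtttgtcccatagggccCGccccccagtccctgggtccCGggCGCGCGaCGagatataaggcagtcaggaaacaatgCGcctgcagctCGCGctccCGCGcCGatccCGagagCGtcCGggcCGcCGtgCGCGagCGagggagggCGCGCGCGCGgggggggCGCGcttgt
CHGA: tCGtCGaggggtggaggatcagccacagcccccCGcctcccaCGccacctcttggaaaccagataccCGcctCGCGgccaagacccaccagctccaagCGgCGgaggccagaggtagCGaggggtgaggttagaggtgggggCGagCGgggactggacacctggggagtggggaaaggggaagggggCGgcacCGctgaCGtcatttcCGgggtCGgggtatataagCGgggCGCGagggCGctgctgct
Over the 300-base windows, MYCL had 43 CpGs (1.05 of the expected number) and CHGA had 24 (0.678). Among coding genes with a promoter in the table, the median of this ratio was 0.657 for those silent in C4-2B and 0.543 for those silent in NCI-H660, both beside 0.802 over the coding genes tested. The letters CAGCTG, an E-box of proneural factors, stood on either strand in 21.7% of the promoters of the first of these sets, in 15.7% of the second, in 17.5% over the coding genes tested and in 18.0% of all promoters. CACGTG, the E-box of MYC and MAX, stood in 6.7%, 8.1%, 9.1% and 7.3% of the same sets.

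Across the 34 gene lists examined, the shares on each side spread from nearly all higher to nearly all lower. The 3 neuroendocrine lists and the MHC list stood at the higher end, with 81.8% to 91.9% of tested members higher. The filter on low counts fixed part of these shares, since a member that passed it through a single line had to differ. Without the filter, 27 of 44 neuroendocrine transcription factors and 34 of 44 granule and vesicle genes were higher. So were 34 of 40 neuroendocrine enzymes, peptides and surface markers and 19 of 24 MHC and antigen processing genes. At the lower end stood ribosomal protein genes (90.5% lower), mitochondrially encoded genes (84.6%), androgen-metabolizing enzymes (72.2%), luminal secretory genes (69.2%) and nuclear-encoded respiratory chain subunits (65.7%).

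**Figure D3:**
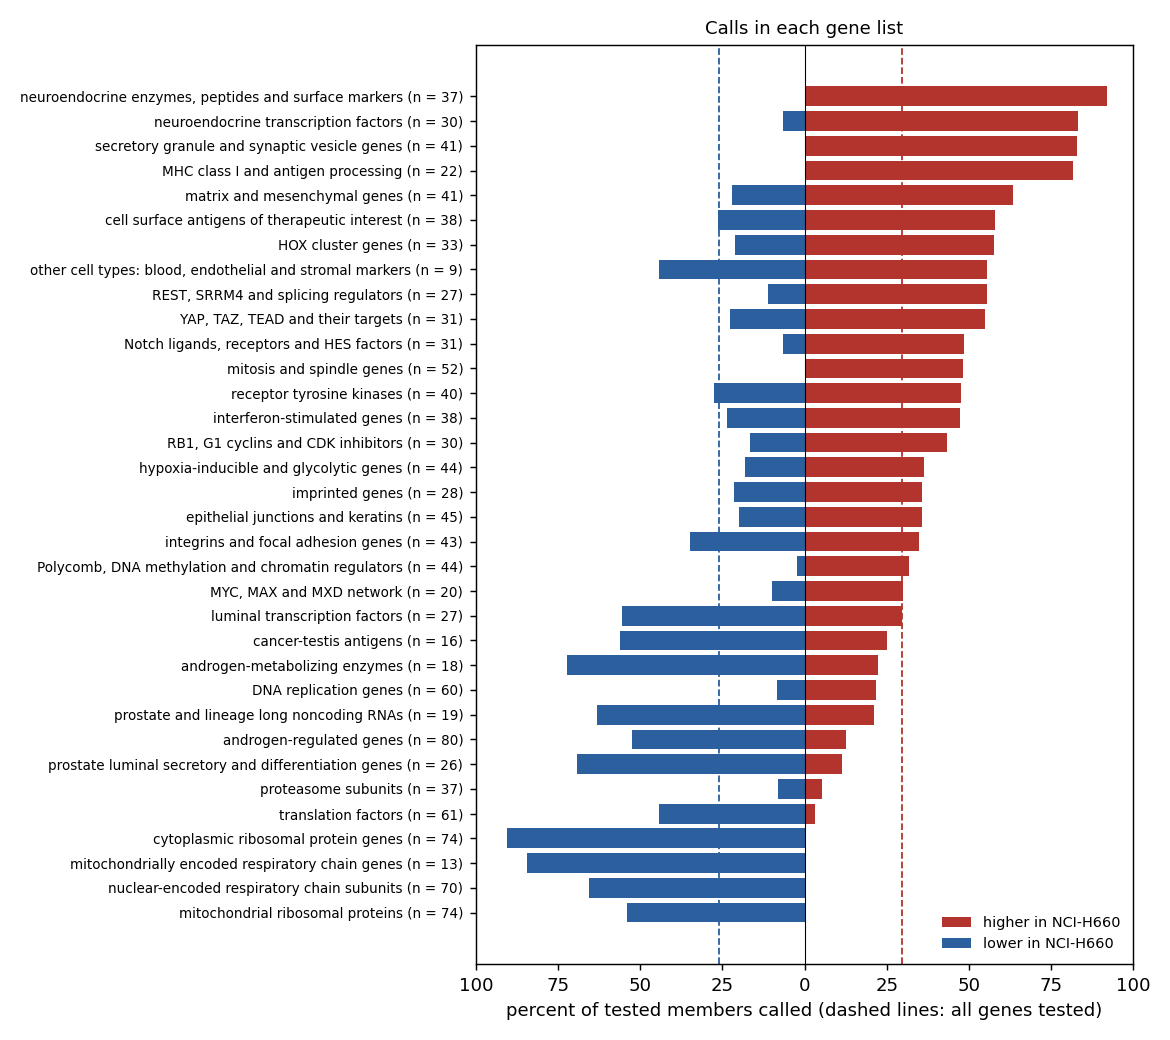
Percent of each list's tested members that were higher (red, to the right) or lower (blue, to the left) in NCI-H660, with the number tested after each name. Dashed lines mark 29.8% and 25.9%, the shares among all genes tested.

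Surface antigens used as drug targets gave 22 higher and 10 lower of 38 tested (median 2.14). Higher were 57.9%, beside 29.8% of all genes tested, and lower were 26.3%, near the 25.9% of all genes. CEACAM6 and CEACAM5, carcinoembryonic adhesion proteins, had no count in C4-2B and stood in NCI-H660 at 802 and 646 CPM (CEACAM6) and 459 and 402 CPM (CEACAM5), although these close paralogs can share reads. KIT, the stem cell factor receptor, stood at 318 and 251 CPM against no count (at least 4979-fold higher), and SEZ6, a neuronal membrane protein, at 189 and 233 CPM against 2 and 0 counts. The epithelial antigen EPCAM (2.30 ± 0.09) was higher as well. On the other side stood FOLH1, STEAP1 and STEAP2, given above, with SLC44A4 (-6.63 ± 0.15), ROR1 (-4.42 ± 0.29) and ERBB2, encoding HER2, (-2.19 ± 0.13). CD276, encoding B7-H3, was not called, at 111 and 110.1 CPM in NCI-H660 and 94.2 and 99.1 CPM in C4-2B.

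Of 27 genes of REST, its partners and splicing regulators tested, 15 were higher and 3 lower (median 1.09). ELAVL3, a neuronal RNA-binding protein, stood at 64.5 and 69.5 against 0.131 and 0.134 CPM (8.92 ± 0.21), CELF4 was higher by 5.23 ± 0.23 and NOVA1 by 2.50 ± 0.17. SRRM3, which promotes neuronal microexons, was higher by 4.2 ± 0.25, whereas SRRM4, its better known relative, had 0 and 1 counts in NCI-H660 and 1 and 0 in C4-2B and was not tested. REST, the repressor of neuronal genes, stood at 38.6 and 42 against 84.6 and 79.1 CPM (-1.02 ± 0.10), at the edge of the call. That call was lost with DESeq2, with relative log expression factors, on both TPM scales and without either replicate 1, where the value was -0.937 or -0.977. The epithelial splicing factors parted, with ESRP1 higher (1.12 ± 0.09) and ESRP2 lower (-3.60 ± 0.14).

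Among 31 Notch genes tested, 15 were higher and 2 lower (median 0.89). The ligand DLL1 stood at 104 and 115 against 0.525 and 0.941 CPM (7.27 ± 0.18), and LFNG, a glycosyltransferase that modifies the receptors, was higher by 3.03 ± 0.12. HEY1 (1.93 ± 0.22) and HES1 (1.05 ± 0.13), Notch-responsive repressors, were also higher, and the ligand JAG1 was lower (-1.33 ± 0.16). The HES1 call was lost without C4-2B replicate 1 (0.931) and the JAG1 call on both TPM scales. Receptors NOTCH1 (0.32 ± 0.12) and NOTCH2 (-0.92 ± 0.10) were not called.

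Genes around YAP gave 17 higher and 7 lower of 31 tested (median 1.20), but YAP1 itself was lower. Higher were 54.8% and lower 22.6%, beside 29.8% and 25.9% over all genes tested. YAP1, the coactivator, stood at 17.6 and 19.3 against 156 and 171 CPM (-3.15 ± 0.11). The YAP partner TEAD2 was lower by 5.79 ± 0.40 and the phosphatase PTPN14 by 5.45 ± 0.21. WWTR1, which encodes the YAP relative TAZ, was higher by 2.90 ± 0.20, and so were TEAD1 (2.96 ± 0.13) and the scaffold AMOTL1 (5.65 ± 0.13). Among known YAP targets, CCN2 had 45 and 66 counts in NCI-H660 and 0 and 1 in C4-2B, and CCN1 was not called (0.17 ± 0.25).

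Both lines were epithelial in their keratins, and KRT8 (0.74 ± 0.09) and KRT18 (-0.13 ± 0.08) were not called. Of 45 junction and keratin genes tested, 16 were higher and 9 lower (median 0.42). Higher were 35.6%, beside 29.8% of all genes tested, and the lower share was below the 25.9% of all genes. The classical cadherins differed, since CDH1 stood at 185 and 171 against 627 and 681 CPM (-1.88 ± 0.09), CDH3, P-cadherin, at 62.3 and 62 CPM against 1 and 1 counts, and CDH2, N-cadherin, at 7.52 and 6.06 CPM against no count. TJP1, a tight junction scaffold, was lower by 3.47 ± 0.11. Claudins went both ways, with CLDN1 (7.13 ± 0.40) and CLDN4 (1.5 ± 0.10) higher and CLDN12 lower (-1.66 ± 0.10).

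Integrins and focal adhesion genes were evenly divided, with 15 higher and 15 lower of 43 tested (median 0.13). Each side held 34.9%, beside 29.8% higher and 25.9% lower over all genes tested. ITGA7 (7.51 ± 0.23) and ITGA3 (3.65 ± 0.19), laminin-binding chains, were higher, as was ITGB6, at 16.6 and 18.9 CPM against no count. ITGA5, a fibronectin-binding chain, was lower by 6.04 ± 0.20 and ITGA6 by 2.22 ± 0.10. The common chains ITGB1 (0.63 ± 0.08) and ITGAV (0.41 ± 0.09) did not reach the fold threshold. Among 41 matrix and mesenchymal genes, 26 were higher and 9 lower (median 1.78). COL1A2, a type I collagen chain, stood at 102 and 99.5 CPM against no count (at least 1771-fold higher) and NID1, a basement membrane linker, at 164 and 175 CPM against 1 and 0 counts. CALD1, an actin-binding protein, showed the opposite, at 0.449 and 0.719 against 311 and 335 CPM (-9.08 ± 0.17). VIM overlapped between the lines, at 28.7 and 26 CPM in NCI-H660 and 23.2 and 26.2 CPM in C4-2B.

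Tumor suppressors and G1 regulators differed in both directions. RB1, the retinoblastoma gene, stood at 10.3 and 8.73 against 69.8 and 73.9 CPM (-2.92 ± 0.12). CCND1, cyclin D1, was lower by 4.32 ± 0.11, at 16.3 and 14.1 against 303 and 305 CPM. Among inhibitors of CDK4 and CDK6, CDKN2A stood at 123 and 139 against 8.08 and 7.3 CPM (4.09 ± 0.12) and CDKN2C at 582 and 636 against 12.6 and 14.8 CPM (5.48 ± 0.12). Over this list of 30 tested genes 13 were higher and 5 lower (median 0.74). CCNE2, cyclin E2, was higher by 3.19 ± 0.10, E2F1 by 1.18 ± 0.12, and CDK4 (0.13 ± 0.09) was not called.

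Of 52 mitosis and spindle genes, 25 were higher and none lower (median 0.90), and of 60 DNA replication genes 13 were higher and 5 lower (median 0.49). The higher shares were 48.1% for mitosis and 21.7% for replication, beside 29.8% over all genes tested. The lower share of replication genes was 8.33%, beside 25.9%. TOP2A, the mitotic topoisomerase, stood at 2117 and 1855 against 249.5 and 243 CPM (3.01 ± 0.09), and the kinesin KIF15 was higher by 3.61 ± 0.10. MKI67, the proliferation antigen, was higher by 1.12 ± 0.09. The mitotic kinase CDK1 (-0.69 ± 0.08), CCNB1 (-0.24 ± 0.10), BIRC5 (-0.18 ± 0.10) and FOXM1 (-0.08 ± 0.09) were not called. PCNA, the replication clamp, was higher by 1.40 ± 0.08 and UHRF1, which maintains DNA methylation, by 2.29 ± 0.10, whereas GINS4 (-1.44 ± 0.12) and RFC3 (-1.23 ± 0.09) were lower, calls that were lost on both TPM scales. Subunits of the origin recognition complex parted, with ORC3 higher by 2.56 ± 0.12 and ORC5 lower by 1.76 ± 0.11. The MKI67 call was lost with the length and GC trend removed (0.795). The count of mitosis genes rose to 42 on log2(TPM + 1) and fell to 6 at a log2 fold change of 2, so the count turned on small differences.

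Ribosomal protein genes were lower in NCI-H660 together. Of 74 cytoplasmic ribosomal protein genes, 67 were lower and none was higher, and all 74 values were below 0 (median -2.01, from -3.65 to -0.29). Their share of all counts was 1.92% and 2.06% in NCI-H660 and 6.60% and 6.58% in C4-2B. RPL13A stood at 258 and 315 against 2972 and 2756 CPM (-3.32 ± 0.11), RPLP0, of the ribosomal stalk, at 539 and 568 against 2608 and 2619.7 CPM (-2.24 ± 0.08), and RPL31 at 46.7 and 51 against 606 and 617 CPM (-3.65 ± 0.09). RPL8, RPL10, RPL15, RPL22, RPL30, RPS19 and RPS20 were the 7 not called, with values from -0.94 (RPS19) to -0.29 (RPS20). The list's median lay between -1.38 on log2(TPM + 1), with all genes at 0.57, and -2.09 after centring. These genes have many processed copies in the genome, and the counting tool's treatment of shared reads is not given in the sources used here.

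Transcript length moved with the result. Among the more abundant of the other coding genes, the median log2 fold change ran from -0.51 in the shortest 10% to 0.36 in the longest 10%. The 931 of them no longer than the median ribosomal protein gene had a median of -0.46. Length was that of each gene's longest annotated transcript, with a median of 1938 bases for ribosomal protein genes. That transcript need not be the one expressed, so the 931 genes are not matched on the length of the RNA present. With each library's trend with length and GC content removed, the median of the ribosomal protein genes was -1.55. The part of length in the result was not otherwise tested.

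In 4 further lists that were assembled after the ribosomal result had been seen, the direction was shared in part. Of 61 translation factors 27 were lower and 2 higher (median -0.88). This list was taken by a pattern of gene symbols that also matches the EIF2AK genes, which encode kinases and not translation factors. EIF4E3, a relative of the cap-binding protein, was higher by 3.30 ± 0.11. EEF2, the translocation factor, was lower by 2.64 ± 0.09, TPT1, the translationally controlled tumor protein, by 2.74 ± 0.09, and EEF1A1, the elongation factor that delivers aminoacyl-tRNA, stood at 3824 and 3898 against 11755 and 12066 CPM (-1.63 ± 0.07). Of 74 mitochondrial ribosomal protein genes 40 were lower and none higher (median -1.07), and of 70 nuclear-encoded respiratory chain subunits 46 were lower and none higher (median -1.13). On log2(TPM + 1) these counts of lower genes were 13, 23 and 17. MRPL41, of the large mitochondrial ribosomal subunit, was lower by 3.59 ± 0.14, and UQCR10, of complex III, by 2.59 ± 0.10. Proteasome subunits, another abundant housekeeping complex, gave 2 higher and 3 lower of 37 (median -0.06, which turned to 0.53 on log2(TPM + 1) and 0.24 with the length and GC trend removed). The 2 higher ones were PSMB8 and PSMB9, subunits of the immunoproteasome.

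The 13 mitochondrially encoded respiratory chain genes were all below 0, and 11 were lower (median -1.57). MT-CO1, a cytochrome oxidase subunit, stood at 5981 and 5366 against 23290.0 and 23610.0 CPM (-2.05 ± 0.08), and MT-ND1, of complex I, at 1992 and 1920.3 against 4055 and 3984 CPM (-1.04 ± 0.08). MT-ND3 (-0.67 ± 0.08) and MT-ND5 (-0.96 ± 0.08) were not called. The MT-ND1 call was lost without NCI-H660 replicate 2 (-0.983), on both TPM scales and with the length and GC trend removed. Fewer mitochondrial transcripts per cell and more of other RNA cannot be told apart in such shares. With the length and GC trend removed, the median was -0.60 and 4 of the 13 were called.

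**Figure D4:**
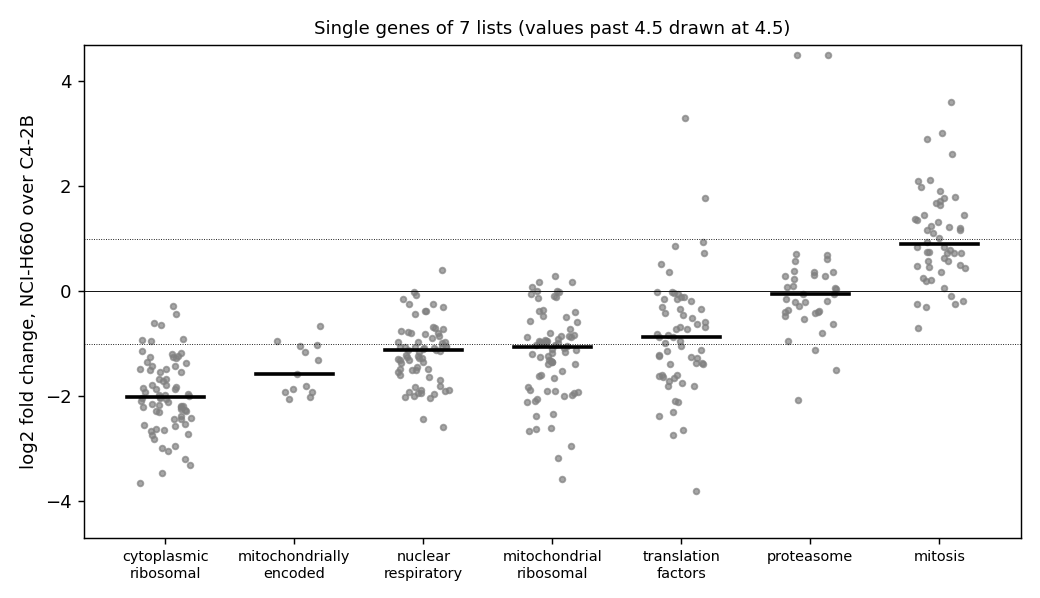
Log2 fold change of each tested gene in 7 lists, NCI-H660 over C4-2B on TMM-normalized counts; points are genes, bars are list medians, dotted lines mark a log2 fold change of 1, and the 2 proteasome genes past 4.5 are drawn at 4.5. The cytoplasmic ribosomal and mitochondrially encoded lists lie wholly below 0, the proteasome list is centred near 0 and the mitosis list lies mostly above it.

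The starts of ribosomal protein genes are shown because their transcripts are known for a pyrimidine tract at the 5′ end, which links their translation to mTOR signaling. Each line gives 30 bases before and 15 after a RefSeq start (GRCh38.p14), and capitals mark the run of C and T that covers or adjoins it. Where a gene had several starts, the one with the longest run was chosen, so the lines shown are not typical starts.
RPL13A: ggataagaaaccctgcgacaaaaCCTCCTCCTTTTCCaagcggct
RPS12: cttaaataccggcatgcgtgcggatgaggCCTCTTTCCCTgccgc
RPL31: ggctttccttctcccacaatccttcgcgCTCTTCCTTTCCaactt
EEF2: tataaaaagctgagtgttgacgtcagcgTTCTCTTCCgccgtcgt
EEF1A1: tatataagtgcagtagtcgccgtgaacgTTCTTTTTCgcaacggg
TPT1: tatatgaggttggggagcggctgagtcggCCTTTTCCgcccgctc
They lie at chr19:49487578-49487622, plus strand (RPL13A), chr6:132814539-132814583, plus strand (RPS12), chr2:101002259-101002303, plus strand (RPL31), chr19:3985449-3985493, minus strand (EEF2), chr6:73521018-73521062, minus strand (EEF1A1) and chr13:45341169-45341213, minus strand (TPT1). Of 60 ribosomal protein genes matched, 52 had a run of at least 5 pyrimidines at any of their starts. Counted per promoter, such a run was found in 74.7% of 75 promoters of ribosomal protein genes and in 26.4% of all promoters. The share was 41.8% among translation factors, 37.1% among nuclear respiratory chain subunits and 22% among mitochondrial ribosomal proteins, the last of these below that of all promoters.

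Most antigen presentation genes were higher in NCI-H660. Of 22 MHC and antigen processing genes tested, 18 were higher and none lower (median 2.38). HLA-B, a classical class I gene, stood at 82.3 and 99.3 against 7.19 and 6.05 CPM (3.77 ± 0.14) and B2M, the invariant light chain, at 886 and 928 against 175 and 193 CPM (2.30 ± 0.09). PSMB8, an immunoproteasome subunit, stood at 43.9 and 52.9 against 0.131 and 0.179 CPM (8.27 ± 0.25), and TAP1, a peptide transporter, was higher by 2.96 ± 0.13. CD74, the class II invariant chain, stood at 42.7 and 44.5 CPM against no count (at least 768-fold higher). HLA genes share sequence, so the split of reads between them is uncertain. The transactivators NLRC5 (2.45 ± 0.29) and IRF1 (3.44 ± 0.19) were higher too.

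Interferon-stimulated genes were mixed, with 18 higher and 9 lower of 38 tested (median 0.96). Their higher share was 47.4%, beside 29.8% of all genes tested, and their lower share was 23.7%, near the 25.9% of all genes. OAS3 (3.87 ± 0.12), IFIT3 (4.72 ± 0.30) and SAMD9 (6.49 ± 0.31), antiviral effectors, were higher. ISG15 (-1.07 ± 0.21), MX1 (-2.72 ± 0.28) and IFITM2 (-4.62 ± 0.25) were lower, and BST2, tetherin, had 0 and 1 counts in NCI-H660 and stood at 23.7 and 23.8 CPM in C4-2B. The ISG15 call was lost without NCI-H660 replicate 1 (-0.873) or C4-2B replicate 2 (-0.999), on both TPM scales and with the length and GC trend removed.

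HOX genes, which set position along the body axis, differed cluster by cluster. Of 33 tested, 19 were higher and 7 lower in NCI-H660 (median 2.24). Higher were 57.6% and lower 21.2%, beside 29.8% and 25.9% over all genes tested. All 7 HOXD genes tested had no count in C4-2B, with HOXD8 at 20.5 and 18.7 CPM in NCI-H660 (at least 344-fold higher). In the HOXC cluster the reverse was seen, and HOXC8, HOXC9, HOXC12 and HOXC13 had no count in NCI-H660 and stood between 5.33 and 13.2 CPM in C4-2B (HOXC9 5.94 and 5.33, HOXC12 10.9 and 13.2). In the HOXB cluster, HOXB2 stood at 37.6 and 38 CPM against 3 and 0 counts and HOXB3 was higher by 5.29 ± 0.19, while HOXB13 was the lower one of the 9 tested. HOXA9 (6.76 ± 0.15) and HOXA13 (4.18 ± 0.14) were higher, and their neighbours HOXA10 (0.68 ± 0.12) and HOXA11 (0.30 ± 0.16) were not called.

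**Figure D5:**
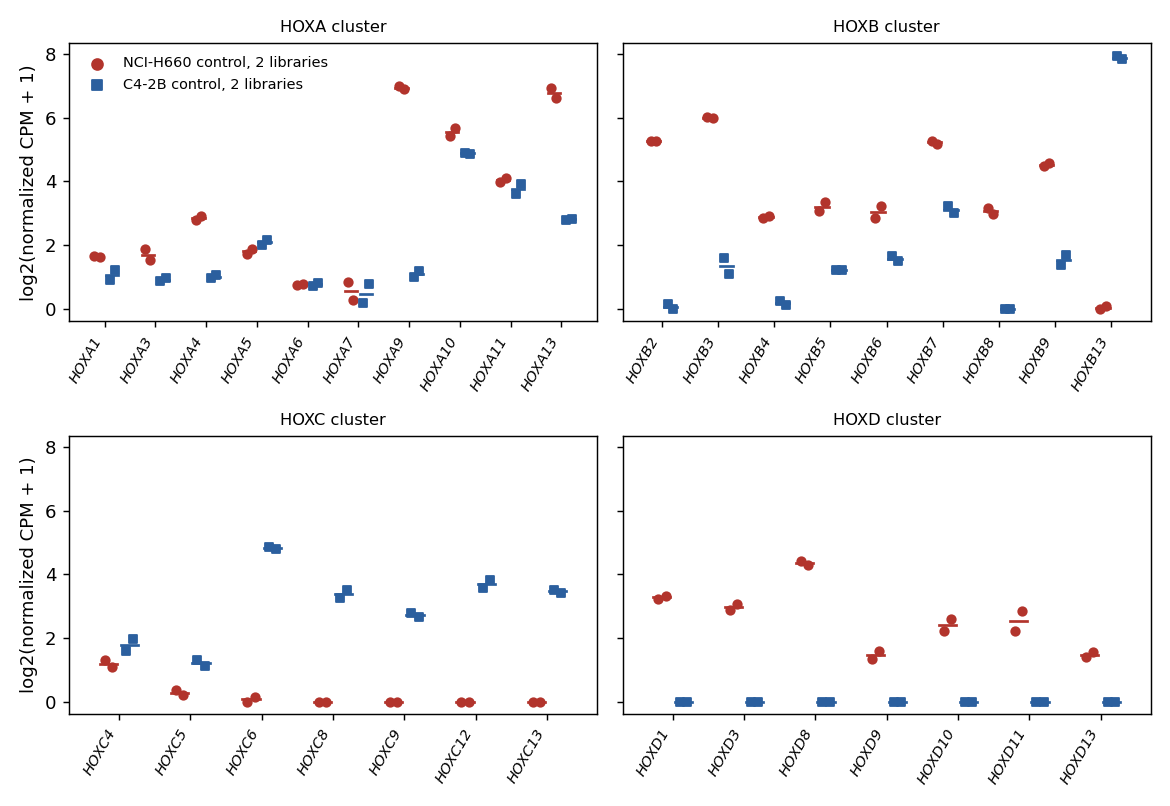
Level of the 33 tested HOX genes in each library by cluster and number, as log2 of TMM-normalized CPM plus 1. Points are libraries and bars are means of 2; the HOXD genes are at 0 in C4-2B, the HOXC8 to HOXC13 genes at 0 in NCI-H660, and HOXB13 is the HOXB gene that is high in C4-2B.

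Genes without counts in a line could be neighbours. With at least 1 CPM on average in the other line, 824 genes (4.4% of those tested) had no count in C4-2B and 399 (2.13%) had none in NCI-H660. The longest run of adjacent tested coding genes with next to no counts in C4-2B held 11 protocadherin beta genes, from PCDHB6 to PCDHB15 (GENCODE 44 on hg38, chromosome 5, 141150057 to 141249365), adhesion genes whose near copies make single values uncertain. A run of 5 on chromosome 4 (73571550 to 74099196) held RASSF6 and the chemokine genes CXCL8, CXCL5, CXCL3 and CXCL2, and CXCL8, interleukin-8, stood at 363 and 355 CPM in NCI-H660 (at least 6319-fold higher). In NCI-H660 the silent runs held KLK15, KLK3, KLK2 and KLK4 (chromosome 19, 50825289 to 50911395), 5 HOXC genes (chromosome 12, 53938831 to 54030823), UGT2B10, UGT2B11, UGT2B28, ODAM and AMTN (chromosome 4, 68815994 to 70532743), and PRAC1, PRAC2 and HOXB13 (chromosome 17, 48721719 to 48728750). Whether such genes are deleted or unexpressed cannot be told apart from RNA.

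Of 40 receptor tyrosine kinases tested, 19 were higher and 11 lower (median 0.54). The higher share was 47.5%, beside 29.8% of all genes tested, and the lower share was 27.5%, near the 25.9% of all genes. EPHA3, an ephrin receptor, had no count in NCI-H660 and stood at 642 and 665 CPM in C4-2B (at least 8105-fold lower), while EPHA7 (5.44 ± 0.14) and EPHB2 (3.70 ± 0.15) were higher. The growth factor receptors IGF1R and EGFR were lower by 2.68 ± 0.09 and 1.12 ± 0.09 (the EGFR call was lost on both TPM scales), and MET, the hepatocyte growth factor receptor, was higher by 1.98 ± 0.16. UNC5B, a netrin receptor, was higher by 4.42 ± 0.20.

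Cancer-testis antigens leaned to C4-2B, with 9 lower and 4 higher of 16 tested (median -6.39, or -4.61 at the bounds). The median was -3.17 on log2(TPM + 1) and -0.51 there over the 30 listed genes without a filter. PAGE1 and MAGEA1 had no count in NCI-H660 and stood in C4-2B at 166 and 169 CPM (PAGE1) and 143 and 142 CPM (MAGEA1), and PRAME had 1 and 2 counts against 119 and 126 CPM. MAGEC2 was higher in NCI-H660 (6.38 ± 0.20). Many of these X-linked genes have near-identical copies, so values within a family are uncertain. MAGED4 stood at 29.1 and 35.4 CPM in NCI-H660 and 0 and 6.23 CPM in C4-2B (3.51 ± 0.73). Its call was lost with DESeq2, and the value was 12.51 without C4-2B replicate 2, which held the only counts of that line.

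Chromatin regulators were mostly not called, with 14 higher and 1 lower of 44 tested (median 0.51). The higher share, 31.8%, was near the 29.8% of all genes tested, and the lower share was 2.27% beside 25.9%. EZH2, the Polycomb methyltransferase, overlapped between the lines at 73.7 and 67.9 CPM in NCI-H660 and 77.4 and 68.3 CPM in C4-2B (-0.04 ± 0.10). ACTL6B, the neuronal subunit of the BAF remodeling complex, stood at 21.2 and 18.6 CPM against 1 and 0 counts, and HDAC9 was higher by 8.97 ± 0.25. SMARCA1, an ISWI ATPase, was higher by 6.61 ± 0.16, TET1, a methylcytosine dioxygenase, by 3.21 ± 0.16, and KDM6A, an H3K27 demethylase, was the lower gene (-1.77 ± 0.09).

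Among 28 imprinted genes, 10 were higher (35.7%, beside 29.8% of all genes) and 6 lower (21.4%, beside 25.9%), with a median of 0.52. PEG10, a retrotransposon-derived gene linked to neuroendocrine prostate cancer, stood at 469 and 390.3 against 1.71 and 2.73 CPM (7.63 ± 0.18), and its neighbour SGCE was higher as well (6.80 ± 0.21). GRB10, an adaptor of insulin receptors, was lower (-1.99 ± 0.09). Of 19 long noncoding RNAs, 12 were lower (63.2%, beside 25.9% of all genes) and 4 higher (21.1%, beside 29.8%), with a median of -1.58. PCA3, the prostate cancer urine marker, was lower (-4.57 ± 0.41), as was GAS5 (-1.98 ± 0.09), a snoRNA host, and MIAT, a neuronal and heart RNA, stood at 41.9 and 43.8 CPM against 3 and 0 counts. Whether counting used strand is not given in the sources used here, so reads of overlapping antisense genes cannot be separated.

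Hypoxia and glycolysis genes gave 16 higher and 8 lower of 44 tested (median 0.66). These shares, 36.4% and 18.2%, stood beside 29.8% and 25.9% over all genes tested. ADM, adrenomedullin, was higher by 7.59 ± 0.44, EGLN3, an oxygen-sensing hydroxylase, by 3.88 ± 0.11 and VEGFA by 1.81 ± 0.12. LDHB, the lactate dehydrogenase subunit that favours pyruvate, had no count in NCI-H660 and stood at 674 and 658 CPM in C4-2B (at least 8295-fold lower). LDHA, its partner subunit, was not called, at 1317 and 1416 CPM in NCI-H660 and 1841 and 1496 CPM in C4-2B. Within glycolysis, PGK1 was higher (1.52 ± 0.11) and GAPDH (-1.31 ± 0.09), PGAM1 (-1.58 ± 0.10) and ALDOC (-6.37 ± 0.16) were lower. The calls of GAPDH and PGAM1 were lost on both TPM scales.

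Of the 12 coding genes with the largest log2 fold changes on each side among those called with a mean of at least 50 CPM, all but IGFBP5 had no count in the other line. On the higher side stood CEACAM6, PLAU, CEACAM5, CXCL8, BMP3, GRIK3, KIT, IGFBP5, TMEM30B, CHGB, SHISA2 and NCAM1. PLAU, the urokinase protease, stood at 427 and 464 CPM (at least 7850.5-fold higher), BMP3, a bone morphogenetic protein, at 392 and 282 CPM (at least 5889.7-fold higher), and GRIK3, a kainate receptor subunit, at 285 and 289 CPM (at least 5055-fold higher). IGFBP5, which binds insulin-like growth factors, was the most abundant, at 1212 and 1260.1 CPM in NCI-H660 against 1 and 0 counts. On the lower side stood KLK3, FOLH1, LDHB, EPHA3, UGT2B11, KLK2, GUCY1A1, AZGP1, IQGAP2, LY6E, PAGE1 and MAGEA1. GUCY1A1, a guanylate cyclase subunit and androgen-induced gene, stood at 273 and 269 CPM in C4-2B (at least 3369-fold lower), and LY6E, a surface protein of the LY6 family, at 175 and 189 CPM (at least 2253-fold lower).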

How the data were processed

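Poly(A) RNA of the 4 control libraries was extracted with TRIzol and sequenced paired-end. The authors deposited a table of estimated counts per gene, not normalized (34.7% of non-zero values were not whole, at a tolerance of 0.0005), and a table of TPM per gene, for which the study names Ensembl annotation as the source of lengths. The build is hg38 per the submitters' processing notes, and the aligner and counter are not given in the sources used here. Of 78691 gene identifiers, 61458 took a position from GENCODE 44, and the deposited TPM table held 65535 genes.

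Counts were rounded to whole numbers, filtered with filterByExpr, normalized with TMM and tested with edgeR 4.0.16 (quasi-likelihood test, Benjamini-Hochberg adjustment over all genes tested) in R 4.3.3, on the 4 libraries alone. Alternatives used DESeq2 1.42.0, limma 3.58.1 on log2(TPM + 1) and log2(TPM + 0.1), other size factors and filters, a replicate block, each library left out and other fold thresholds. Tables and figures used Python 3.11.15, pandas 2.3.3, scipy 1.17.1 and matplotlib 3.10.9. The fits were also run on simulated counts in which only a small set of genes was changed. That differs from the 55.7% of genes called here, so the simulation does not test normalization between lines this far apart. Replicate numbers were not taken to pair the samples, since the labels name no pairing. A gene without counts in a line was set against a floor of 3 counts over its 2 libraries. With 1 to 3 counts, the ratio has an exact 95% interval from the binomial split of the counts. Both cover counting error only. Errors after ± are standard errors of the log2 fold change.

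The comparison and its gene lists were chosen with earlier results of these data known. The rule for genes to name took the MYC family and lineage genes of the study, the 12 coding genes with the largest log2 fold changes on each side at a mean of at least 50 CPM, and in each list the 4 called members with the largest changes each way at 5 CPM or more in the higher line. The text prints part of these genes, so the members shown are not always the largest of their list. Other named genes, 4 lists (translation factors, mitochondrial ribosomal proteins, nuclear-encoded respiratory chain subunits and proteasome) and the removal of the length and GC trend were chosen after the values were seen. Promoter sequences came from RefSeq (GRCh38.p14), and chromosomes 8 and Y were left out of all promoter counts and shares. CpG ratios are observed over expected numbers. Some members of the lists are counted but not reported by name here.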

Additional observations from a re-analysis of the deposited data

How the results depend on the processing

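The totals of 5581 higher and 4861 lower genes ranged from 5270 to 5749 and from 4618 to 4980 with 1 library left out. With a replicate block they were 5481 and 4721. The labels give same-numbered libraries of the lines nothing in common but the number, so they were not treated as pairs. Their deviations correlated at 0.037 over 10547 genes, which rests on a single difference per line and cannot settle whether they shared a batch. Every list count stayed within 1.5 times under the block. On log2(TPM + 1), log2(TPM + 0.1) and log2(TPM + 1) without a filter, 2102, 2401 and 2134 genes were lower. Centring left 3314 higher genes. At a log2 fold change of at least 2, the genes called between control NCI-H660 and control C4-2B were 6344, 2501 of them lower.

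Of 645 list counts under alternatives, 61 moved by more than 1.5 times. Both TPM scales, with or without a filter, gave 33 higher replication genes (13 on counts), 42 mitosis genes (25), 22 or 23 chromatin regulators (14), and 6 lower long noncoding RNAs (12). They gave 5 or 6 lower mitochondrially encoded genes (11), 16 or 17 nuclear-encoded respiratory chain subunits (46), 23 or 24 mitochondrial ribosomal proteins (40), 13 or 14 translation factors (27) and 1 proteasome subunit (3). log2(TPM + 0.1) gave 11 higher genes of the MYC network (6). Centring gave 3 in the MYC network, 8 Notch (15), 11 YAP (17), 15 matrix (26) and 12 receptor tyrosine kinase genes (19), 2 markers of other cell types (5) and 5 lower proteasome subunits. Without a filter, 14 cancer-testis antigens were lower (9), and at a mean of at least 10 counts 3 markers of other cell types were higher. That count ranged from 3 (without NCI-H660 replicate 1) to 5 with 1 library left out. Removal of the length and GC trend left 4 mitochondrially encoded genes.

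Without a minimum fold change, the counts were 12 for the MYC network, 38 for replication, 43 for mitosis, 26 for chromatin regulators, 25 for hypoxia and glycolysis (16), and on the lower side 63 for mitochondrial ribosomal proteins, 14 for proteasome and 44 for translation factors. At a log2 fold change of at least 2, higher genes were 3 in the MYC network, 11 around YAP, 7 among G1 regulators (13), 2 in replication, 6 in mitosis, 5 chromatin regulators and 9 in hypoxia and glycolysis. Lower genes were 2 mitochondrially encoded, 7 long noncoding RNAs, 38 ribosomal proteins (67), 4 nuclear-encoded respiratory chain subunits, 12 mitochondrial ribosomal proteins, 1 proteasome subunit and 7 translation factors.

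The medians of 3 lists changed sign. The proteasome median is given in the report, that of imprinted genes was -0.02 without NCI-H660 replicate 2, and that of other cell types was -0.22 without a filter and -1.05 or -0.14 without NCI-H660 replicate 1 or 2. Of 3493 single gene values over 351 genes, 3370 kept direction and call, 61 lost the call, 19 gained it and 43 turned. Lost calls are given in the report beside the genes named there. GAPDH also lost its call with the length and GC trend removed. Among genes not named there, they were NUMBL, UBE3A, PSMA5, PSMD9 and CELF1 on both TPM scales, CELF1 also without NCI-H660 replicate 2 (-0.979), MT-ND4L and MT-ATP8 with the length and GC trend removed, and 1 other gene on log2(TPM + 1). HES6, DDC, KRT8, HOXA10 and ITGB1 gained a higher call on both TPM scales, ITGAV and SOX9 on log2(TPM + 0.1), HES6 and DDC with the trend removed and HES6 without NCI-H660 replicate 1. RPS19 gained a lower call without C4-2B replicate 1 or NCI-H660 replicate 2, MT-ND5 without C4-2B replicate 2 and NOTCH2 with the trend removed.

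Genes that turned had not been called. On log2(TPM + 1) and log2(TPM + 0.1) they were FOXA1 (0.479, 0.483), CLU (0.492, 0.508), RPL22 (0.023, 0.023), MAX (0.079, 0.08), RPL30 (0.181, 0.181), CCNB1 (0.205, 0.206), MXD4 (0.222, 0.231), CDK6 (0.316, 0.551), RPS20 (0.318, 0.318), LDHA (0.334, 0.334), BIRC5 (0.409, 0.413), KRT18 (0.473, 0.474), FOXM1 (0.537, 0.548) and EZH2 (0.554, 0.566). With the length and GC trend removed they were NOTCH1 (-0.117), MAF (-0.129), RAB3B (-0.26), CCNB1 (0.03), CLU (0.033), KRT18 (0.119), RPL30 (0.159) and MT-ND3 (0.642). With 1 library left out the values of RAB3B (-0.026 to 0.22), MAF (-0.024 to 0.085), MXD4 (-0.103 to 0.004), EZH2 (-0.141 to 0.045) and CCN1 (-0.157 to 0.47) had either sign. The cause of these shifts was not tested. Each line had 2 libraries, so depth and replicate number limit genes near the floor most.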

Other observations

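Calls were unevenly spread over the chromosomes. Among 14255 coding genes tested the median log2 fold change was 0.12, and it was highest on chromosome 18 (0.73, with 45.8% of 201 genes higher and 15.4% lower) and chromosome 6 (0.64, 41.7% of 749 higher and 15.1% lower). It was lowest among the nuclear chromosomes on chromosome 22 (-0.59, 17.6% of 346 higher and 38.2% lower) and chromosome 16 (-0.46, 17.9% of 649 higher and 33.3% lower). Chromosome Y was left out, and copy number was not measured in these libraries.

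Shorter silent runs held genes of other kinds. In C4-2B these were RPRM, GALNT13, KCNJ3 and NR4A2 on chromosome 2 (153477338 to 156342348) and GAP43, LSAMP, IGSF11 and TEX55 on chromosome 3 (115623510 to 119160042). In NCI-H660 they included TMEM185B, RALB and INHBB on chromosome 2 (120217479 to 120351803), where RALB, a RAS-like GTPase, had no count against 51 and 48.7 CPM in C4-2B (at least 622-fold lower). CLU, clusterin, stood at 22.2 and 22.4 CPM in NCI-H660 and 24.4 and 23.7 CPM in C4-2B (-0.11 ± 0.12), and SOX9, a progenitor factor, at 7.81 and 8.98 CPM in NCI-H660 and 5.06 and 4.84 CPM in C4-2B (0.76 ± 0.21), and neither was called.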
